A study of Mus musculus with 6 samples.

Results

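Transcripts of 10 genes of the bone morphogenetic protein (BMP) pathway were followed in kidney endothelial cells (ECs) after endothelial deletion of Rbpj, the DNA-binding factor through which all Notch receptors act. The genes were chosen by name, with earlier results of these data known. They were the ligands Bmp2, Bmp4 and Bmp6, the type II receptor Bmpr2 and the secreted BMP-binding protein Bmper. The others were the inhibitory Smads Smad6 and Smad7 and the target genes Id1, Id2 and Id3. All 10 were among the 55401 genes of the deposited count table and among the 18438 genes that had enough counts to be tested. The comparison asked how these genes differ between ECs with and without Rbpj. RNA came from CD31-positive, CD45-negative cells sorted from the kidneys of male mice, with 1 library from each of 3 mice per group. The group that the labels call RbpjDEC, written RbpjΔEC here, was Cre +/- and Rbpj f/f. The control group (CTRL) was Cre -/- and Rbpj f/f. Both groups thus carried the floxed alleles, and both received tamoxifen as 5 intraperitoneal doses of 1.5 mg from 8 weeks of age. Kidneys were taken 12 weeks later, and the labels give an age of 21 weeks. Cre was a tamoxifen-inducible form under the Cdh5 promoter, which is active in ECs of all vessels, so the deletion was not specific to the kidney. Control mice carried no Cre, and the effect of Cre itself cannot be told apart from that of the deletion.

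BMP ligands bind a complex of type I and type II receptors, which phosphorylates Smad1, Smad5 and Smad9. These enter the nucleus with Smad4 and induce target genes, among them the Id genes and the inhibitory Smads, which act back on the receptors. In ECs the main receptor complex pairs Bmpr2 with the type I receptor Acvrl1 (ALK1) and the co-receptor endoglin (Eng), and loss-of-function alleles of the human forms of these genes cause pulmonary arterial hypertension and hereditary hemorrhagic telangiectasia. Id proteins have a helix-loop-helix domain but no DNA-binding region, and hold E proteins away from DNA. Notch and BMP signals meet at shared targets such as Hey1 and Hey2 during vessel sprouting.

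RefSeq promoter windows, from 250 bases before to 50 bases after the start of the transcript, were at hand for 7 of the 10 genes (Bmp4, Bmp6, Bmpr2, Bmper, Smad6, Id2 and Id3). They were searched on both strands for GTGGGAA, a core of the Rbpj site, and for GGCGCC, a GC-rich element bound by Smad1 and Smad5. Coordinates below are on GRCm38.p6. GTGGGAA was present in 6.38% of all 32851 mouse windows, and among these 7 genes in Bmpr2 alone, 215 bases before the start. GGCGCC was present in 11.9% of all windows, and here in those of Bmpr2 and Id2. Since Bmpr2 had the smallest p of the 10 genes, the 30 bases around each of its matches are shown, read on the plus strand, with the matching letters in capitals. The first lies at chr1:59764052-59764081 and the second at chr1:59764162-59764191. Both stretches lie within an annotated exon of GENCODE M21.
Bmpr2, GTGGGAA: tcgacccagtcgGTGGGAAggatttgttga
Bmpr2, GGCGCC: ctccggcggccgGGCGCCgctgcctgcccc

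Stretches before the RefSeq start sites of Id2 and of its relative Id4 are shown as the Id genes with GGCGCC, again in capitals, and that of Smad6 as a BMP target with neither motif. The Id2 stretch is at chr12:25096254-25096342 (minus strand), which is within the Id2 gene and in an intron of its longest GENCODE M21 transcript, and the other 161 of the 250 upstream bases lie in an exon and are not shown. The Id4 stretch is at chr13:48260866-48261115 (plus strand) and the Smad6 stretch is at chr9:64022060-64022309 (minus strand). Id4 is not among the 10 genes and appears again beside the Id genes. The E-box forms CAGCTG and CACGTG, the kind of site that E proteins and related factors bind, were found in 16.3% and 7.15% of all windows. CAGCTG was present in Id2, and CACGTG in Bmp4 and Bmp6. A match describes the letters only, and binding was not measured.
Id2: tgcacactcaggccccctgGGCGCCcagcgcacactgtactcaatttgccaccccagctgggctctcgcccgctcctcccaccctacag
Id4: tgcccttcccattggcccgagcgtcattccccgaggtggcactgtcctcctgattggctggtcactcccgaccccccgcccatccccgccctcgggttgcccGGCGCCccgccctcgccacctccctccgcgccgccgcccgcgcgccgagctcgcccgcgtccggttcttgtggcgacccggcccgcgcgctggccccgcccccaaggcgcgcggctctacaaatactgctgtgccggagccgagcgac
Smad6: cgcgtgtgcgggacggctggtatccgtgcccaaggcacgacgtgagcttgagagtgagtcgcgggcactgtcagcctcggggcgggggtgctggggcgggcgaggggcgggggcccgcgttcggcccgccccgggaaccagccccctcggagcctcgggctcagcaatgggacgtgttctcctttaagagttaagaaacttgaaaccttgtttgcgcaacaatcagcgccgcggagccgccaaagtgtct

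The libraries held 39649171 to 47726850 counts on genes, and 3 counts, the smallest level treated as measurable, corresponded to 0.0634 to 0.0749 CPM (the counts of a gene scaled to a library of standard size, after TMM normalization). CTRL 1 stood apart with 33764 genes that had a count, beside 25629 to 26785 in the other 5 libraries. Counts of the 10 genes ranged from 170 for Bmp2 in RbpjΔEC 2 to 51732 for Bmpr2 in CTRL 3. Rbpj itself was at 28.1, 29.7 and 29.8 CPM in CTRL and 28.9, 26.1 and 29.6 CPM in RbpjΔEC. The counts cover the whole gene and do not separate the floxed part, so the groups rest on the labels. All 12 pan-endothelial markers passed the filter, led by Kdr with 5994 ± 308 CPM in CTRL and 4960 ± 44.3 CPM in RbpjΔEC (mean ± SD, n = 3), while Cd3e and Cd3d were at 0 in every library. Across all genes 209 passed an adjusted p of 0.05 in the quasi-likelihood test of edgeR (Benjamini-Hochberg adjusted over the tested genes), 106 higher and 103 lower in RbpjΔEC. The p-values measure the spread between these 6 mice.

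All 10 genes had a lower fitted level in RbpjΔEC than in CTRL, and none passed the threshold in edgeR's quasi-likelihood test (background 1.13% of all tested genes, 0.575% higher and 0.559% lower). The median log2 fold change was -0.29 over the 10 genes and 0.01 over all tested genes. Bmp2, Bmp6 and Bmpr2 were lower at an unadjusted p under 0.05, 3 of 10 beside 8.62% of all genes in that direction. Bmp2, Bmp6, Bmpr2 and Smad6 were lower in every RbpjΔEC library than in any CTRL library, 4 of 10 beside 11.6% of all genes. The count of calls depended on the tool and the filter. DESeq2 with the same filter called Bmp2, Bmp6 and Bmpr2 (5.12% of all genes called), DESeq2 on all genes with a count called Bmp6 and Bmpr2 (1.52%), and limma voom called Bmpr2 (1.32%). Without a filter on low counts edgeR called Bmp2, Bmp6 and Bmpr2 (3.75%). The Id genes passed none of these tests.

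The 3 RbpjΔEC mice were not alike. RbpjΔEC 3 was the highest RbpjΔEC library for 9 of the 10 genes, the exception being Bmp4, and RbpjΔEC 2 was the lowest for 7. Relative to the CTRL mean, the median of the 10 genes on the log2 scale was -0.30 in RbpjΔEC 1, -0.47 in RbpjΔEC 2 and -0.08 in RbpjΔEC 3, beside -0.12, -0.02 and 0.08 in CTRL 1 to 3. Without RbpjΔEC 3, edgeR's quasi-likelihood test called 4 of the 10 genes, all lower (Bmp6, Bmper, Bmpr2 and Smad6), and 521 genes in all (2.73%). Without CTRL 2 it called Bmpr2 (3.65% of all genes called), and without any other single library it called none.

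**Figure D1:**
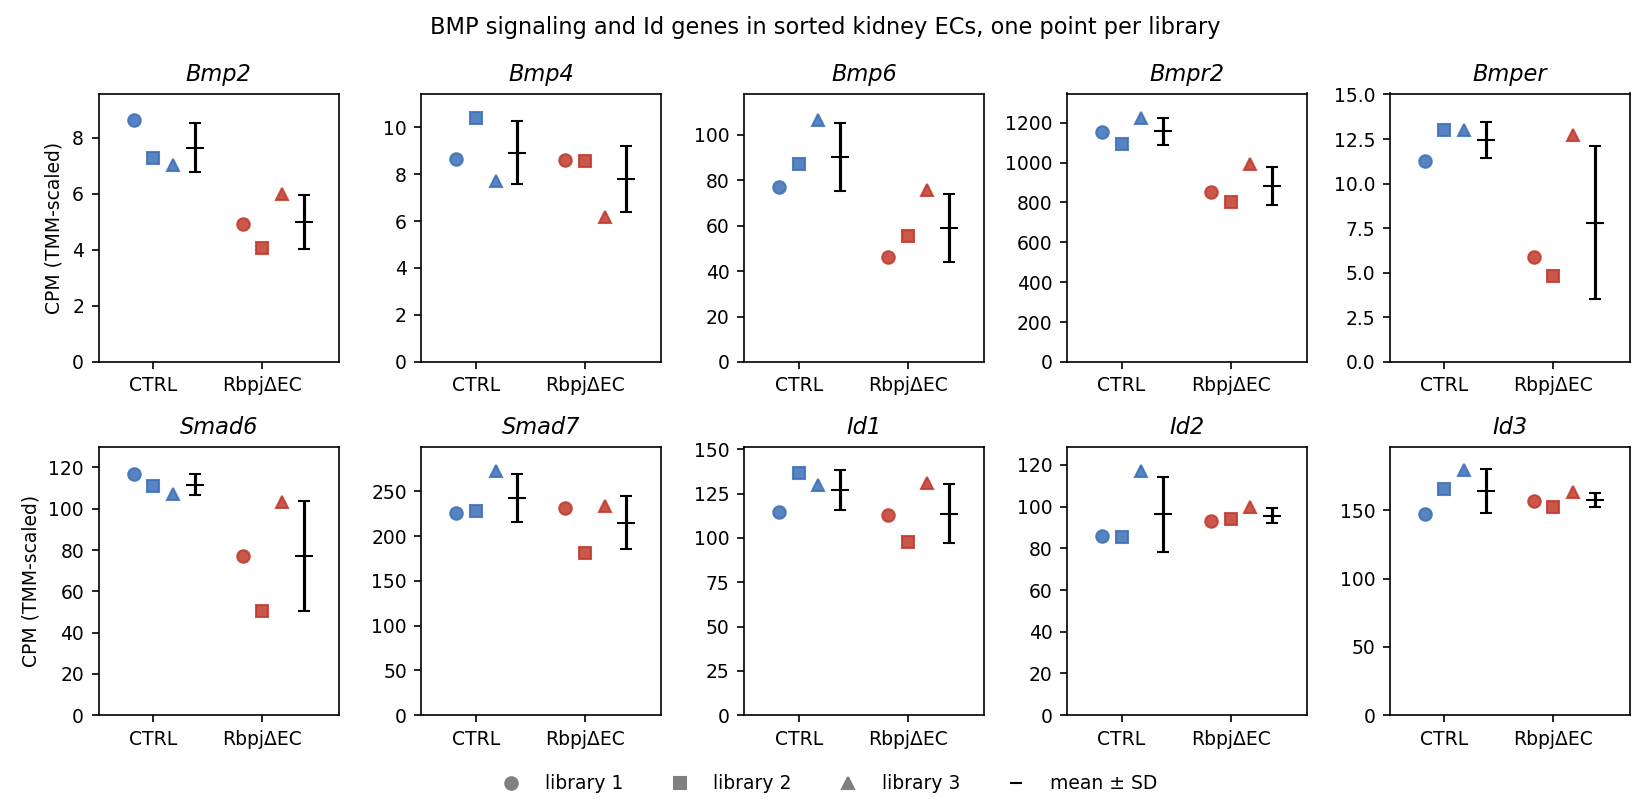
CPM of the 10 genes (vertical axes, each from 0) in the 3 CTRL and 3 RbpjΔEC libraries, with a symbol for each library and bars for mean ± SD. Bmp2, Bmp6, Bmpr2 and Smad6 do not overlap between the groups, RbpjΔEC 3 lies nearest to CTRL for most genes, and Id1, Id2 and Id3 overlap.

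Levels were compared between genes as CPM per kilobase of exon (RPKM). In CTRL ECs Id1 (109.5 ± 9.58 RPKM) and Id3 (91.7 ± 9.10) were the highest of the 10 genes, and their ranges overlapped. Bmpr2 followed with 64.3 ± 3.72 RPKM, then Smad7 with 53.7 ± 5.84, Id2 with 39.5 ± 7.44 and Smad6 with 34.9 ± 1.54. Neighbours in this order did not overlap, except Id2 and Smad6. Of the ligands, Bmp6 was at 23.1 ± 3.81 RPKM and Bmp4 at 3.96 ± 0.60, above Bmper at 2.57 ± 0.208 and Bmp2 at 2.15 ± 0.245. The ranges of Bmper and Bmp2 overlapped. Among the receptors outside the 10 genes, Eng was at 598.0 ± 53.9 RPKM and Acvrl1 at 60.5 ± 1.26. The type I receptors Bmpr1a, Bmpr1b and Acvr1 were chosen for their role after their values were seen. Bmpr1a was at 0.467 ± 0.0546 RPKM and Bmpr1b at 0.120 ± 0.128, and Acvr1 at 6.14 ± 0.434, so that Acvrl1 had the highest level of these type I receptors.

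**Figure D2:**
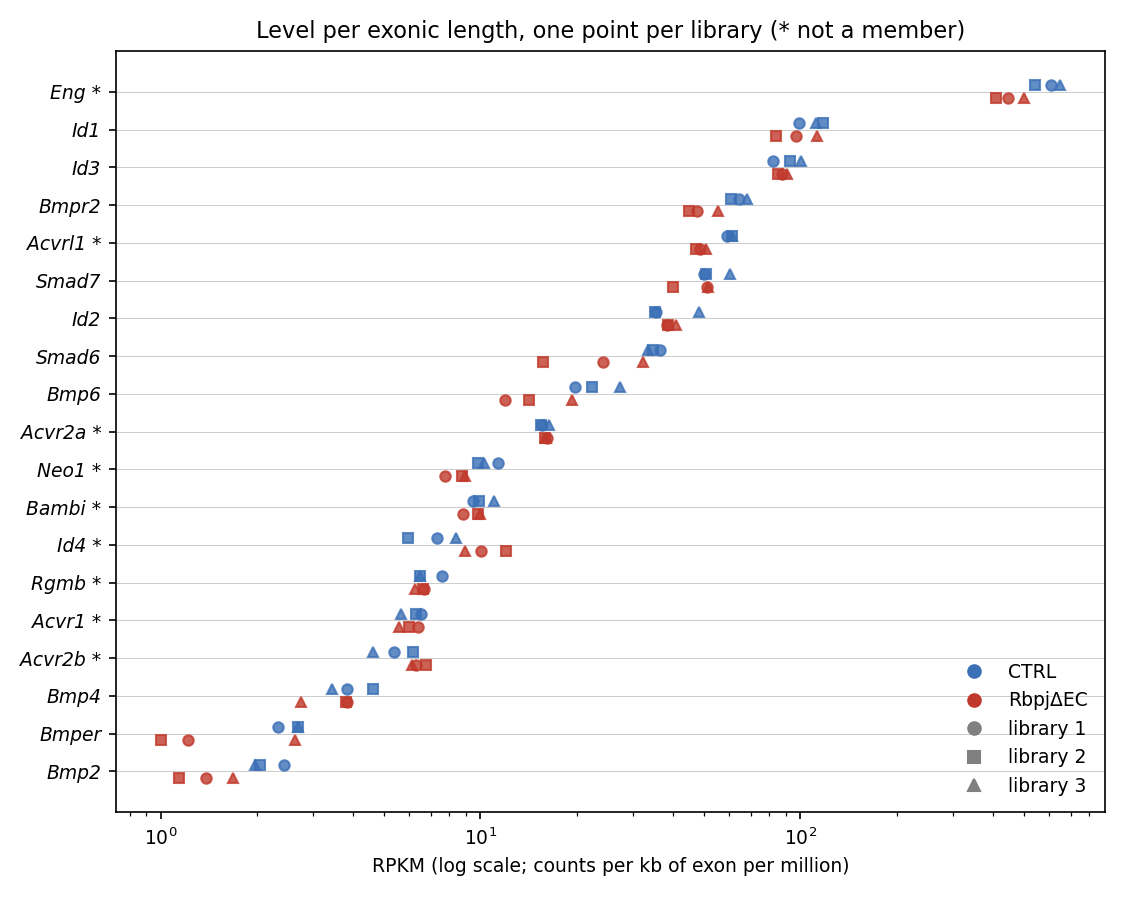
RPKM (log axis) of the 10 genes and of other BMP pathway genes with at least 1 RPKM in CTRL, with a point for each library. Eng stands highest at 598.0 RPKM in CTRL, Id1 and Id3 lead the 10 genes, and Bmper and Bmp2 are lowest among them.

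Of the ligands, Bmp6 was the most abundant. Bmp6, which ECs secrete and which is known from liver ECs as a signal of iron load, was at 77.1, 87.3 and 106.4 CPM in CTRL and at 46.4, 55.5 and 75.6 CPM in RbpjΔEC. The highest RbpjΔEC library was just under the lowest CTRL library. On the log2 scale the difference was -0.61 ± 0.205 (SE), with a 95% interval from -1.11 to -0.11 and an adjusted p of 0.208 in edgeR's quasi-likelihood test. Bmp6 (chr13:38345107-38500302, plus strand) shares 224 exonic bases with Txndc5 on the other strand. The strand setting of the counting is not given in the sources used here, so reads of that stretch cannot be assigned to 1 of these genes with certainty.

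Bmp2, a ligand with roles in vessel growth and bone formation, was scarcer. It was at 8.63, 7.27 and 7.01 CPM in CTRL and at 4.93, 4.05 and 5.99 CPM in RbpjΔEC (chr2:133552159-133562885, plus strand). The groups did not overlap, and the size of the difference was the same as for Bmp6 at -0.61 ± 0.183 on the log2 scale (95% interval -1.01 to -0.21), with an adjusted p of 0.118 in edgeR's quasi-likelihood test. Bmp4, which is known for its part in the formation of mesoderm and of vessels, overlapped between the groups. Its values were 8.63, 10.4 and 7.72 CPM in CTRL and 8.61, 8.56 and 6.16 CPM in RbpjΔEC (chr14:46383520-46390669, minus strand). The log2 fold change of Bmp4 was -0.20 with a 95% interval from -0.57 to 0.18, and with 1 library left out it lay between -0.05 (without RbpjΔEC 3) and -0.29 (without CTRL 3).

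Of the 11 other ligands listed, only Bmp7 and Bmp15 had enough counts to be tested. Bmp7, a ligand that renal tubules also express, was at 1.84 ± 0.536 CPM in CTRL and 0.684 ± 0.235 CPM in RbpjΔEC, with a log2 fold change of -1.43 and an adjusted p of 0.0841 in edgeR's quasi-likelihood test. Bmp7 passed in DESeq2 with the same filter (adjusted p = 0.0165), and its adjusted p ranged from 0.00860 to 0.281 over all alternatives in edgeR, DESeq2 and limma. Of the 8 tubule markers, 5 were lower and 3 higher by sign, with log2 fold changes from -2.77 to 1.28 and a median of -1.15. At an unadjusted p under 0.05, 2 were lower (background 8.62%). The sum of the tubule markers was 442.4, 297.3 and 309.8 CPM in CTRL and 167.8, 122.2 and 436.0 CPM in RbpjΔEC, led by Slc12a3, and 0 of the 8 markers passed the test. Their part in the Bmp7 value was not tested. Bmp15 was at 0.521 and 0.362 CPM, with overlapping groups.

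Bmpr2, the type II receptor, had the smallest p of the 10 genes. It was at 1155.4, 1091.0 and 1224.9 CPM in CTRL and at 852.1, 804.5 and 991.5 CPM in RbpjΔEC (chr1:59763400-59879014, plus strand). Every RbpjΔEC library lay below every CTRL library, with RbpjΔEC 3 closest to them. The fold change on the log2 scale was -0.39 ± 0.0890 (95% interval -0.58 to -0.20), a level 23.7% lower, and the adjusted p of 0.0602 in edgeR's quasi-likelihood test was just over the threshold. In limma voom the adjusted p was 0.0419 with the same fold change, and over all alternatives of tool, filter, scaling and left-out library (edgeR, DESeq2 and limma) it ranged from 2.2e-05 to 0.235. In bulk RNA from sorted cells, fewer cells of a type and less RNA per cell cannot be told apart.

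Of the other receptors and co-receptors, Acvrl1 alone passed the test. Acvrl1, the type I receptor that binds BMP9 and BMP10, was at 251.9, 261.7 and 260.6 CPM in CTRL and at 206.9, 201.3 and 216.7 CPM in RbpjΔEC. The groups were well apart, and Acvrl1 fell by 0.31 on the log2 scale (SE 0.0648, adjusted p = 0.0468 in edgeR's quasi-likelihood test). That call was lost without CTRL 1, CTRL 3, RbpjΔEC 1 or RbpjΔEC 2, with an adjusted p between 0.120 and 0.194 in these 4 edgeR fits (0.00146 to 0.194 over all alternatives). It was also lost when counts were scaled by library size alone (adjusted p = 0.0714 in edgeR) and when replicate number was added to the model (0.0579 in edgeR). Eng, chosen for its role after its values were seen, was at 2421 ± 218 CPM in CTRL and 1828 ± 186 CPM in RbpjΔEC without overlap, a log2 fold change of -0.41 with an adjusted p of 0.0660 in edgeR's quasi-likelihood test. Eng passed in DESeq2 with the same filter (adjusted p = 0.00211) and in limma voom (0.0481), and its adjusted p ranged from 4.4e-06 to 0.235 over all alternatives. Bmpr1a, chosen in the same way, was at 2.97 ± 0.347 and 1.32 ± 0.629 CPM, with a log2 fold change of -1.16 and an adjusted p of 0.116 in the same edgeR test. Bmpr1a passed in DESeq2 with the same filter (adjusted p = 0.0272), and its adjusted p ranged from 0.00759 to 0.322 over all alternatives. Of the 11 other receptors and co-receptors, all tested, 9 were lower and 2 higher by sign. At an unadjusted p under 0.05, 4 were lower (background 8.62%) and 1 was higher (background 8.88%).

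Bmper, which binds BMPs outside the cell and can promote or block their action, was lower in some RbpjΔEC mice and not in others. It was at 11.3, 13.0 and 13.0 CPM in CTRL and at 5.87, 4.84 and 12.8 CPM in RbpjΔEC (chr9:23223076-23485200, plus strand). RbpjΔEC 1 and 2 were far below CTRL, while RbpjΔEC 3 lay within the CTRL range. The log2 fold change was -0.67 ± 0.362 (95% interval -1.55 to 0.21), with an adjusted p of 0.400 over all 6 libraries and, without RbpjΔEC 3, a log2 fold change of -1.22 with an adjusted p of 0.00348, both in edgeR's quasi-likelihood test. Without RbpjΔEC 2 the log2 fold change of Bmper was -0.42. Over all alternatives in edgeR, DESeq2 and limma its adjusted p ranged from 0.00348 to 0.843. Of the 16 other extracellular modulators, 11 were tested and 0 passed, with 5 lower at an unadjusted p under 0.05 (background 8.62%). DESeq2 with the same filter called Mgp and Grem1 among them (background 5.12%).

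Mgp, a matrix protein that binds BMPs and limits calcification, was at 26.1 ± 6.07 CPM in CTRL and 14.9 ± 2.99 CPM in RbpjΔEC. Its log2 fold change was -0.81 with an adjusted p of 0.0934 in edgeR's quasi-likelihood test, and the groups did not overlap. Grem1, a BMP antagonist, was at 1.24 ± 0.368 and 0.441 ± 0.197 CPM, with an adjusted p of 0.114 in the same edgeR test. Markers of mural cells and stroma, which can hold transcripts of such secreted proteins, moved the same way. The sum of 9 mural markers was 85.3 to 112.0 CPM in CTRL and 35.1 to 56.9 CPM in RbpjΔEC, and 3 of the 8 tested fell (Acta2, Myh11 and Rgs5, background 0.559%), led in level by Myh11 with 29.7 ± 4.34 and 14.0 ± 3.60 CPM. The sum of 6 stroma markers was 4.63 to 7.08 CPM and 1.54 to 2.92 CPM, and of 3 tested Pdgfra fell (background 0.559%). Their part in the values of Mgp, Grem1 and Bmper was not tested.

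Smad6 and Smad7 encode inhibitory Smads, of which Smad6 acts mainly on BMP receptors and Smad7 also on those of TGF-β. Smad6 was at 117.1, 110.8 and 107.3 CPM in CTRL and at 77.4, 50.2 and 103.5 CPM in RbpjΔEC (chr9:63953076-64022059, minus strand). The groups did not overlap, but RbpjΔEC 3 was close to CTRL and RbpjΔEC 2 was far below. Its log2 fold change was -0.54 ± 0.265 (95% interval -1.21 to 0.13), with an adjusted p of 0.376 over all 6 libraries and, without RbpjΔEC 3, a log2 fold change of -0.81 with an adjusted p of 0.0465, both in edgeR's quasi-likelihood test. Without RbpjΔEC 2 it was -0.31. The alternatives in edgeR, DESeq2 and limma gave Smad6 an adjusted p from 0.0465 to 0.633. Smad7 overlapped between the groups. It was at 226.2, 228.6 and 273.1 CPM in CTRL and at 231.1, 180.8 and 233.3 CPM in RbpjΔEC, a log2 fold change of -0.17 (95% interval -0.42 to 0.07). With 1 library left out it lay between -0.06 (without RbpjΔEC 2) and -0.24 (without RbpjΔEC 3).

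The Smads that carry the signal were measured beside them and were chosen for their role after their values were seen. Smad1 was at 109.5 ± 1.27 CPM in CTRL and 120.3 ± 16.9 CPM in RbpjΔEC, Smad5 at 140.1 ± 5.50 and 152.8 ± 20.8 CPM, and Smad4 at 94.8 ± 2.50 and 92.8 ± 3.20 CPM. All of these groups overlapped. Smad9 was at 32.2 ± 1.49 and 24.1 ± 7.12 CPM, again with RbpjΔEC 2 lowest and RbpjΔEC 3 highest in its group. Of the 10 other intracellular mediators and regulators, 1 rose. This was Tob1, an antiproliferative protein that represses Smad activity, at 63.4, 73.7 and 68.0 CPM in CTRL and 89.9, 102.5 and 96.7 CPM in RbpjΔEC. Every RbpjΔEC library was above CTRL, with a log2 fold change of 0.49 ± 0.0799 and an adjusted p of 0.0175 in edgeR's quasi-likelihood test. The call was lost without CTRL 1, CTRL 3, RbpjΔEC 1 or RbpjΔEC 2, with an adjusted p between 0.0645 and 0.0929 in these edgeR fits (5.7e-07 to 0.0929 over all alternatives). Of 21 tested immediate-early genes, which respond fast to growth factors and cell handling, 7 rose in RbpjΔEC (background 0.575%) and 17 were higher at an unadjusted p under 0.05 (background 8.88%). The sum of the immediate-early genes was 7697 to 9260 CPM in CTRL and 10041 to 11823 CPM in RbpjΔEC. Their part in the Tob1 value was not tested.

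The 3 Id genes overlapped between the groups. Id1, the classical BMP target in ECs, was at 114.8, 136.4 and 130.0 CPM in CTRL and at 112.8, 97.6 and 130.9 CPM in RbpjΔEC (chr2:152736251-152737410, plus strand). RbpjΔEC 3 was within the CTRL range and the other two were below it. The log2 fold change of Id1 was -0.16 ± 0.106, with a 95% interval from -0.39 to 0.07. It was -0.06 without RbpjΔEC 2 and -0.27 without RbpjΔEC 3.

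Id2 was at 86.1, 85.6 and 117.2 CPM in CTRL and at 93.2, 94.2 and 99.6 CPM in RbpjΔEC (chr12:25093799-25097140, minus strand). All RbpjΔEC values lay inside the CTRL range, and the log2 fold change of -0.01 (95% interval -0.26 to 0.25) took the other sign in several of the alternatives. Id3 was at 147.1, 165.8 and 179.6 CPM in CTRL and at 157.2, 152.4 and 163.3 CPM in RbpjΔEC (chr4:136143497-136145755, plus strand), again inside the CTRL range. Its log2 fold change was -0.06 (95% interval -0.23 to 0.12). Summed over Id1, Id2 and Id3, the level was 387.5 ± 39.4 CPM in CTRL and 367.1 ± 25 CPM in RbpjΔEC.

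Id4, the remaining family member, chosen after its values were seen, was higher in every RbpjΔEC library. It was at 28.2, 22.9 and 32.3 CPM in CTRL and at 38.7, 46.4 and 34.4 CPM in RbpjΔEC (chr13:48261228-48266026, plus strand). The groups did not overlap in this direction for 11.4% of all tested genes. Its log2 fold change was 0.52 ± 0.141 (95% interval 0.21 to 0.84), with an adjusted p of 0.104 in edgeR's quasi-likelihood test and of 0.0145 in DESeq2 with the same filter (1.5e-05 to 0.301 over all alternatives). The difference between Id4 and the other Id genes was not tested. Of the E proteins, which Id proteins bind, and of related factors, 5 in all were listed and tested. Of these, 0 passed in edgeR's quasi-likelihood test, with 0 at an unadjusted p under 0.05. Tcf4 was the one with the smallest p, at 770.6 ± 10.8 CPM in CTRL and 838.2 ± 27.3 CPM in RbpjΔEC, a log2 fold change of 0.12 without overlap. Lyl1 was at 6.61 ± 1.37 and 7.72 ± 1.50 CPM.

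Hey1 and Hey2, targets of both BMP and Notch signals, were lower in every RbpjΔEC library than in CTRL. Hey1 was at 16.7, 19.9 and 22.6 CPM in CTRL and at 11.5, 8.92 and 14.6 CPM in RbpjΔEC, and Hey2 at 6.04, 8.79 and 8.22 CPM and at 4.71, 5.13 and 4.47 CPM. The lowest values of both genes in CTRL were from CTRL 1. Their log2 fold changes were -0.76 ± 0.176 and -0.69 ± 0.180, with adjusted p values of 0.0722 and 0.0859 in edgeR's quasi-likelihood test. Atoh8, a transcription factor gene downstream of Acvrl1 in ECs, chosen after its values were seen, was at 20.8 ± 1.83 and 14.2 ± 4.11 CPM, a log2 fold change of -0.55 with an adjusted p of 0.167 in the same edgeR test. Of the 9 other target genes listed, 8 were tested and 0 passed. At an unadjusted p under 0.05, 1 was higher (Id4, background 8.88%) and 3 were lower (Hey1, Hey2 and Atoh8, background 8.62%), and DESeq2 with the same filter called these 4 (background 5.12%).

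Over the whole list of 57 other BMP pathway genes, 42 were tested, of which 1 rose (Tob1) and 1 fell (Acvrl1) in edgeR's quasi-likelihood test. By sign 32 were lower and 10 higher, and the log2 fold changes had a median of -0.28. At an unadjusted p under 0.05, 15 were lower (background 8.62%) and 4 were higher (background 8.88%), and DESeq2 with the same filter called 12 in all (background 5.12%).

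**Figure D3:**
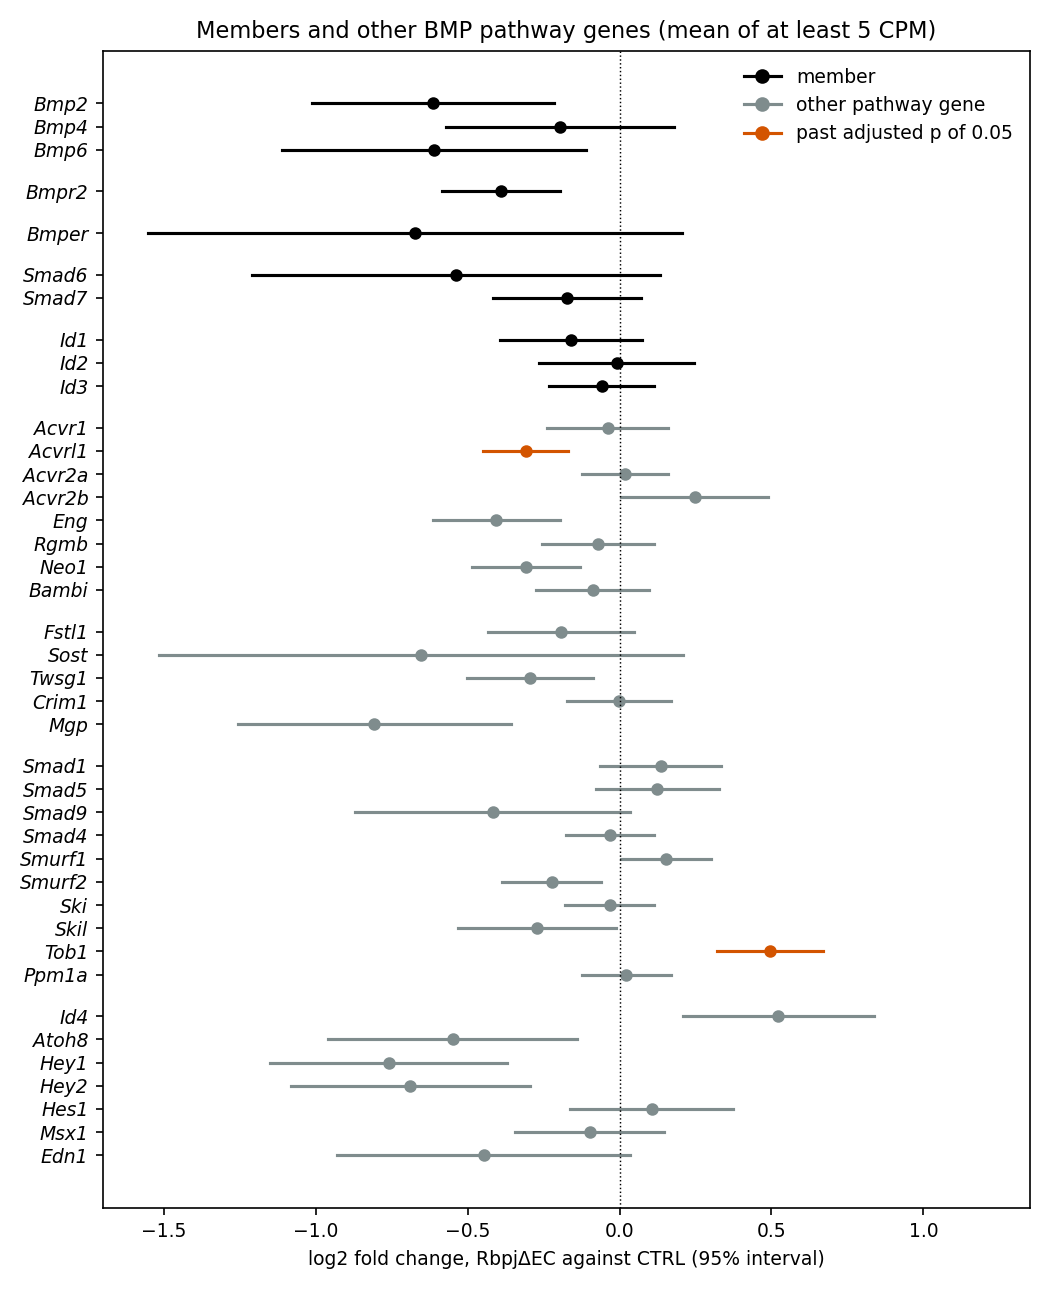
Log2 fold change, RbpjΔEC minus CTRL (horizontal axis), with 95% intervals, for the 10 genes and 30 other BMP pathway genes with a mean of at least 5 CPM, grouped by role. The intervals of Bmp2, Bmp6 and Bmpr2 lie below 0 and those of the other 7 members span 0, while of the genes outside the 10 more intervals lie below 0 (among them Acvrl1, Eng, Mgp, Hey1, Hey2 and Atoh8) than above it (among them Tob1 and Id4).

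Of the 12 pan-endothelial markers 9 were lower and 3 higher by sign in RbpjΔEC (their log2 fold changes had a median of -0.18), and 0 passed edgeR's quasi-likelihood test. At an unadjusted p under 0.05, 4 were lower (background 8.62%) and 1 was higher (background 8.88%). The sum of 11 pan-endothelial markers (Eng left out, as a BMP co-receptor) was 21905, 19994 and 22244 CPM in CTRL and 18691, 18830 and 18432 CPM in RbpjΔEC, a log2 difference of -0.20. When each gene was expressed per 1000 CPM of these markers, the groups overlapped for all 10 genes. The lower marker sum raises this ratio for every gene alike: the median log2 difference of the ratio was 0.20 over the 18314 tested genes with counts in all libraries, and the groups were apart for 3.01% of all tested genes on the lower side and 29.5% on the higher side. Bmpr2 was then at 52.7, 54.6 and 55.1 in CTRL and at 45.6, 42.7 and 53.8 in RbpjΔEC, a log2 difference of -0.20, beside -0.39 in CPM. Bmp2 and Bmp6 were each at a log2 difference of -0.43, Bmper at -0.60 and Smad6 at -0.40. Id1, Id2, Id3 and Smad7 were at 0.03, 0.20, 0.14 and 0.02. Of the genes outside the 10, Acvrl1 was at -0.11 and Eng at -0.21, both with overlap, while Tob1 at 0.69 and Id4 at 0.72 were higher without overlap, as were 29.5% of all tested genes. No test was made on these ratios.

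**Figure D4:**
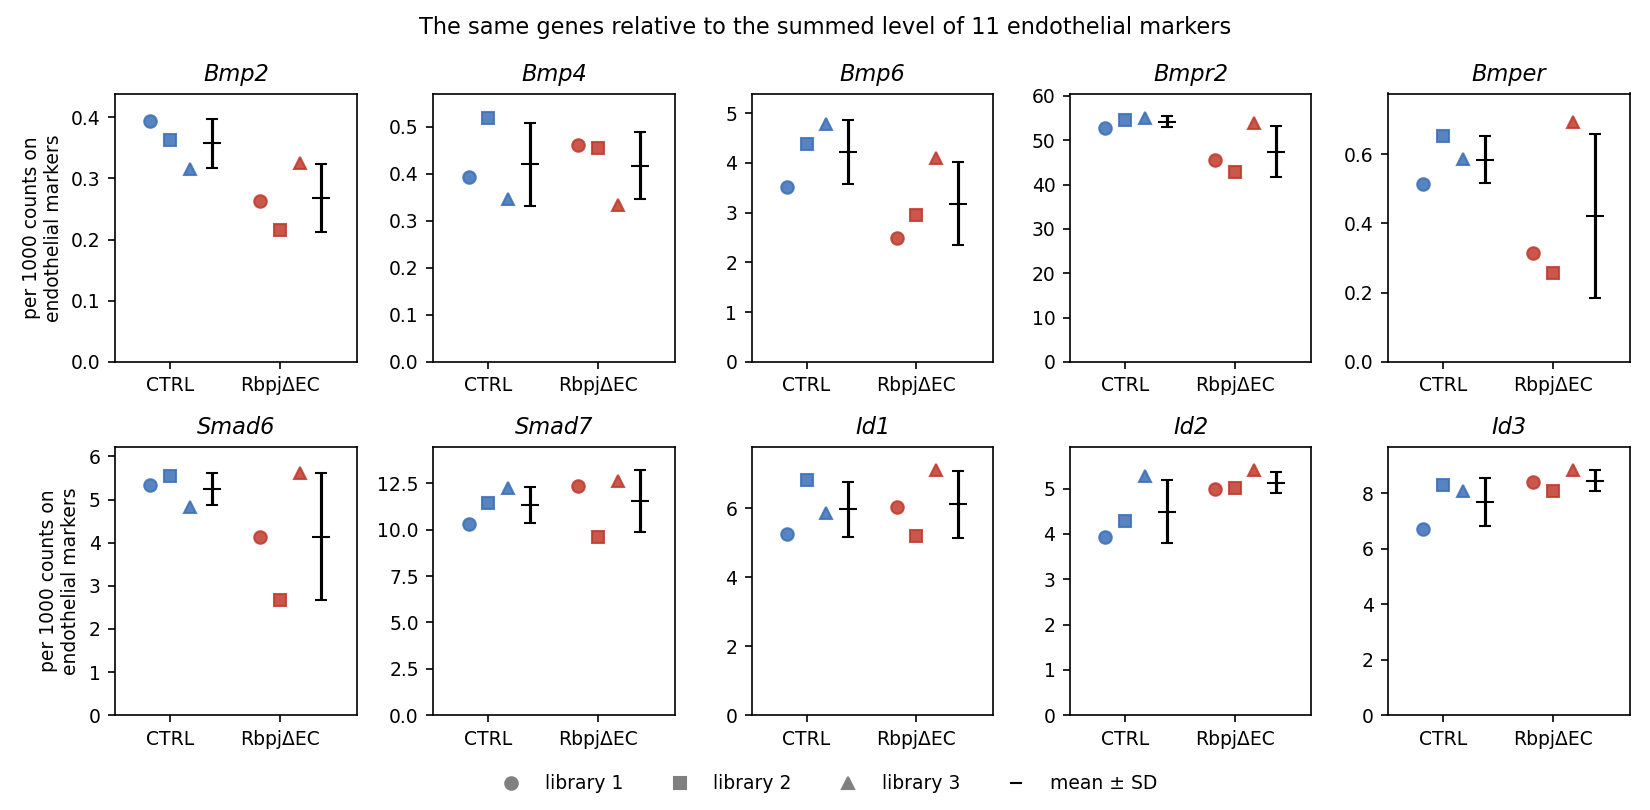
Levels of the 10 genes per 1000 counts on 11 endothelial markers (vertical axes from 0), with a symbol for each library and bars for mean ± SD. The groups overlap for every gene, and for Bmpr2 RbpjΔEC 3 at 53.8 lies among the CTRL libraries at 52.7 to 55.1.

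Markers of other cell types were summed in the same way. Macrophage markers summed to 15.3 to 18.6 CPM in CTRL and 24.1 to 29.4 CPM in RbpjΔEC, where Cd68 alone rose (background 0.575%), from 9.97 ± 2.71 to 24.0 ± 1.7 CPM. The other 4 of the 5 tested macrophage markers were lower by sign, 2 of them at an unadjusted p under 0.05 (background 8.62%), and the list had a median log2 fold change of -1.25. B and T cell markers summed to 0.676 to 0.898 and 0.245 to 0.599 CPM. The lymphatic EC markers summed to 607.8 to 692.6 CPM and 635.5 to 669.5 CPM, mostly from Flt4, which blood ECs also express. Of the 3 tested lymphatic markers, 2 were higher and 1 lower by sign. The lower one had a log2 fold change of -1.19 and an unadjusted p under 0.05 (background 8.62%). The podocyte list was led by Podxl, which is also an endothelial gene, at 3232 ± 216 CPM in CTRL and 2545 ± 141 CPM in RbpjΔEC. Of the 5 tested podocyte markers, 4 were lower and 1 higher by sign, with a median log2 fold change of -0.66. At an unadjusted p under 0.05, 1 of them was lower (background 8.62%).

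The tested genes with the pattern most like that of Bmpr2 over the 6 libraries were Usp9x, Parm1 and Ecm1, with Pearson correlations of log2 CPM of 0.997, 0.996 and 0.994. Usp9x was at 245.7 ± 4.74 CPM in CTRL and 224.6 ± 9.53 CPM in RbpjΔEC, Parm1 at 3.34 ± 0.234 and 2.12 ± 0.339 CPM, and Ecm1 at 73.4 ± 2.85 and 58.5 ± 5.07 CPM. The 6 points share the division into groups and the scaling of each library, and the correlations are given as a description.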

How the data were processed

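Libraries from sorted kidney ECs of 3 CTRL and 3 RbpjΔEC mice were analysed. The authors prepared stranded total RNA libraries, sequenced them in 1 common run, aligned reads with STAR 2.6.1d to GRCm38.p6 (GENCODE M25) and counted them with featureCounts (Subread 1.6.4), and the deposited counts are whole numbers without normalization. Groups came from the labels. In R 4.3.3, edgeR 4.0.16 was run on all genes kept by filterByExpr (TMM, estimateDisp, robust glmQLFit, glmQLFTest, group as the only term), with Benjamini-Hochberg adjustment over 18438 genes, a threshold of 0.05, and 95% intervals from the quasi-likelihood fit. CPM used TMM-scaled library sizes, and log2 CPM for correlations a prior count of 2. Exonic lengths and gene positions came from GENCODE M21, another release than that of the authors. Promoter windows came from RefSeq on GRCm38.p6. Alternatives covered normalization, the low-count filter, DESeq2 1.42.0, limma 3.58.1 voom, a replicate block and each library left out. DESeq2 on all genes with a count was added after the data were seen.

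The 10 genes and all lists were chosen with earlier results of these data known. Named by rule were Rbpj, the 10 genes, the genes past the threshold in each role group or else the 2 with the smallest p, the 3 genes most correlated with the member of smallest p, and the leading markers. Other named genes are marked in the text. Intervals of fold changes cover the spread between mice and counting error.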

Additional observations from a re-analysis of the deposited data

How the results depend on the processing

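The 10 genes kept a median log2 fold change between -0.38 and -0.25 in every alternative, and Bmp2, Bmp4, Bmp6, Bmpr2, Bmper, Smad6, Smad7 and Id1 kept a negative sign. Over all genes 209 were called in the edgeR fit, 1436 without a low-count filter, 944 with DESeq2, 584 with DESeq2 on all genes with a count, 344 with the replicate block and 21 to 700 with 1 library left out (54 without CTRL 1, 700 without CTRL 2, 24 without CTRL 3, 21 without RbpjΔEC 1, 48 without RbpjΔEC 2 and 521 without RbpjΔEC 3). Of the 10 genes, 3 were called without the filter and with DESeq2, 2 with DESeq2 on all genes, 1 with limma voom and 0 to 4 with 1 library left out. Of the other BMP pathway genes, 1 was called with library size alone (Tob1, not Acvrl1), 19 without the filter, 12 with DESeq2, 7 with DESeq2 on all genes and 0 to 11 with 1 library left out. Their median moved to -0.41 without the filter, -0.20 with at least 1 CPM in 3 libraries, -0.42 with DESeq2 on all genes, and -0.34 to -0.20 with 1 library left out. With library size alone the median of all genes was 0.05 and the calls were 159 higher and 82 lower, beside 106 and 103.

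Calls gained were Bmp2 at -0.61 without the filter and -0.62 with DESeq2, Bmp6 at -0.60 without the filter and -0.61 with both DESeq2 fits, and Bmpr2 at -0.38 without the filter and -0.39 with both DESeq2 fits and voom. With 1 library left out, log2 fold changes ranged from -0.76 to -0.48 for Bmp2, -0.83 to -0.46 for Bmp6, -0.48 to -0.33 for Bmpr2, -1.22 to -0.42 for Bmper, -0.81 to -0.31 for Smad6, -0.29 to -0.054 for Bmp4, -0.24 to -0.063 for Smad7, -0.27 to -0.060 for Id1, -0.095 to 0.15 for Id2, -0.14 to 0.0087 for Id3 and -0.089 to 0.0013 for Rbpj. The sign of Id2 turned with library size alone (0.035) and voom (0.0066), and that of Smad4 with library size alone (0.011). The cause was not tested.

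The labels do not say whether mice with the same replicate number were paired, and the paper used littermate controls. Deviations from the group means of such mice correlated at 0.0231, 0.00916 and 0.00544 over genes. Correlations of this kind cannot show whether the mice were paired. With the replicate block 344 genes and 2 of the 10 were called, Bmp6 at -0.63 (adjusted p = 0.00331 in edgeR's quasi-likelihood test, 0.00331 to 0.403 over all alternatives) and Bmpr2 at -0.39 (0.0266 in the same test), 4 other pathway genes were called (Eng, Hey1, Mgp and Tob1) but not Acvrl1 (adjusted p = 0.0579 in edgeR), and Id2 was at 0.0061. Of the 10 genes Bmper (SE 0.362), Smad6 (0.265) and Bmp6 (0.205) had the least precise log2 fold changes, while the fewest counts, 170 to 616 per library, were those of Bmp2, Bmp4 and Bmper.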
